A study of Mus musculus with 4 samples.

Results

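The genes described here are the G1 cyclins, the kinases they drive and the inhibitors of those kinases: Ccnd1, Ccnd2, Ccnd3, Ccne1, Ccne2, Cdk4, Cdk6, Cdkn1a, Cdkn1b and Cdkn2c. They are the probe sets whose array annotation gives a single symbol equal to 1 of these 10 names, which makes 27 probe sets of 35041 with a single symbol, and 10 genes of 18193. Of these, 20 probe sets of 9 genes were measured, meaning that the signals of both arrays of a design reached a floor set at that design's median. The floor was 736 on the MOE430A design and 942 on the MOE430B design.

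The cells compared were grown as neurospheres, which are balls of dividing neural progenitors that float in culture, from mouse forebrain at E12.5. The source given for both is the ventral telencephalon. The wild-type group is 1 RNA sample and the group labelled E2f4 knockout is 1 RNA sample, and both were run on the array designs MOE430A and MOE430B, 4 arrays in all. The labels name no strain, no allele, no number of embryos and no treatment, so what either sample pools is unknown here. No test across samples could be made with 1 sample in each group, values carry no biological error, and whether a difference belongs to the genotype or to these particular cultures was not tested.

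A cell leaves G1 and starts to copy its DNA once the retinoblastoma family of pocket proteins has been phosphorylated. D-type cyclins, made in response to growth factors, activate CDK4 and CDK6 for the first of these phosphorylations, and E-type cyclins with CDK2 complete them. The inhibitors work on this step in different ways: p18INK4c, the product of Cdkn2c, binds CDK4 and CDK6 alone, while p21 and p27, the products of Cdkn1a and Cdkn1b, bind cyclin and kinase complexes more widely. E2F4 acts downstream, as the factor that brings pocket proteins to the promoters of cell-cycle genes to hold them down. The labels state that the deletion was studied for its effect on signalling in neural stem cells.

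Because E2F4 works at promoters, the bases before the annotated start of 4 members are printed next. Ccne1 is a textbook E2F target, Cdkn1a is the member with the lowest gene value in the knockout sample, and Cdk4 and Cdkn2c lay close to 0. Sequences are those of the RefSeq promoter table of build GRCm38.p6, which matched 7 of the 10 members; Ccnd1, Ccnd2 and Ccne2 were not matched. Each line gives the 250 bases before the start, 5′ to 3′ on the strand of the gene. Cdkn1a and Cdkn2c have a further start each, whose bases are not printed. For both genes the printed window is the one that holds the marked word, and the other lacks it. Capitals mark the GC box GGGCGG, on either strand, in Ccne1, the E-box CACGTG in Cdk4, a pair of CATG words 6 bases apart, the core of a p53 response element, with the bases between them, in Cdkn1a, and TTCCCGC, a shortened E2F word, in Cdkn2c.
Ccne1 upstream of its start, chr7:38107491-38107740, minus strand: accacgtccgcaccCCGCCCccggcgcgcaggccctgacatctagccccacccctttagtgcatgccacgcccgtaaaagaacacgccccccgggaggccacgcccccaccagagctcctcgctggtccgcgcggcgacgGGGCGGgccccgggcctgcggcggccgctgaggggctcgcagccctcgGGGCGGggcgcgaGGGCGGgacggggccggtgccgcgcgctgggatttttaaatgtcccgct
Cdk4 upstream of its start, chr10:127063285-127063534, plus strand: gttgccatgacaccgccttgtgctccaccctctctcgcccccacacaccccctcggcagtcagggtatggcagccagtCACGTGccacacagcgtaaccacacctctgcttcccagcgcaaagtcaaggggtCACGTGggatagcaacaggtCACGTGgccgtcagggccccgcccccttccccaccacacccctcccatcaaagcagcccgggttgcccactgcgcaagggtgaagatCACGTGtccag
Cdkn1a upstream of its start, chr17:29090729-29090978, plus strand: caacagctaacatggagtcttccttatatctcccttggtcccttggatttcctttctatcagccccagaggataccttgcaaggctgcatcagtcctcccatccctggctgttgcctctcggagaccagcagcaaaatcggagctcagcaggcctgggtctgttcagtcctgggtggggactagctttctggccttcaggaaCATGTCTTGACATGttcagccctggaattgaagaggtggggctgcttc
Cdkn2c upstream of its start, chr4:109666757-109667006, minus strand: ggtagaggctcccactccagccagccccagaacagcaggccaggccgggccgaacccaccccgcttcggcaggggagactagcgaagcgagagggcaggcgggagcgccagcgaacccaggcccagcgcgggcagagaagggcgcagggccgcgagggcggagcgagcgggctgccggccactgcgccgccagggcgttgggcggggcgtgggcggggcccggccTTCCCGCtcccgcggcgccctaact

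The full E2F words, TTTCCCGC and the same word with CG, GC or GG right after the TTT, searched on both strands like all words named next, were in 0 of the 10 windows of these 7 members and in 2.26% of all 32851 windows, which run from 250 bases before a start to 50 after it. The same windows held no CHR word, TTTGAA or TTCGAA, which 19.2% of all windows hold. The same words without their first T were in 1 window of 10, the printed one of Cdkn2c, and in 9.57% of all windows. The GC box was in 7 of the 10 windows against 35.7% of all, with 4 copies in that of Ccne1 and 4 in 1 window of Cdkn2c. The E-box was in 3 windows against 7.15%, with 4 copies in that of Cdk4. The p53 pair was in 1 window against 0.712%, beginning 48 bases before the upstream start of Cdkn1a. The shortened E2F words overlap the full ones by construction. The last 4 kinds of motif were chosen after the windows had been read, a match describes letters and not a bound site, and the absence of a word says only that these letters are not in that window.

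Signals were given by the authors on a linear scale. The median signal was 735 or 736 on MOE430A and 941 or 942 on MOE430B, and the Gapdh signal at the 3′ end over that at the 5′ end, a measure of RNA integrity, lay between 0.799 and 0.948 on the 4 arrays. E2f4 itself had 1 probe set, on MOE430A, which read 1812 in wild-type and 1535 in knockout spheres, a log2 ratio of -0.25. Whether that probe set lies inside the deletion is unknown here, so it is no check of the label. Ratios are log2 of knockout over wild type within a design, less the median over its probe sets, and a gene's value is the mean over its measured probe sets. Probe sets of a gene share the RNA and the array, so they repeat the reading of a transcript and not the experiment. The pooled SD between measured probe sets of a gene was 0.33 over 3956 genes and 0.28 over the 5 members with more than 1.

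Across the members, the knockout sample had more Ccnd2 on every probe set, less Cdkn1a on the measured one, conflicting readings of Ccnd3 and Ccne1, and near-equal Ccnd1, Cdk4 and Cdkn2c. The median log2 ratio of the 9 measured members was -0.01, with 4 higher and 5 lower. Over all 10171 measured genes the median was also -0.01, with 48.6% higher. By the size rule of 1.3-fold, a log2 ratio of 0.38, 2 members of 9 were higher, Ccnd2 and Ccnd3, where 9.54% of all measured genes were, and 1 was lower, Cdkn1a, where 10.4% were. None of the 9 reached 2-fold either way, as 1.01% of all measured genes did. With 9 genes these counts are descriptions of these 2 samples.

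**Figure D1:**
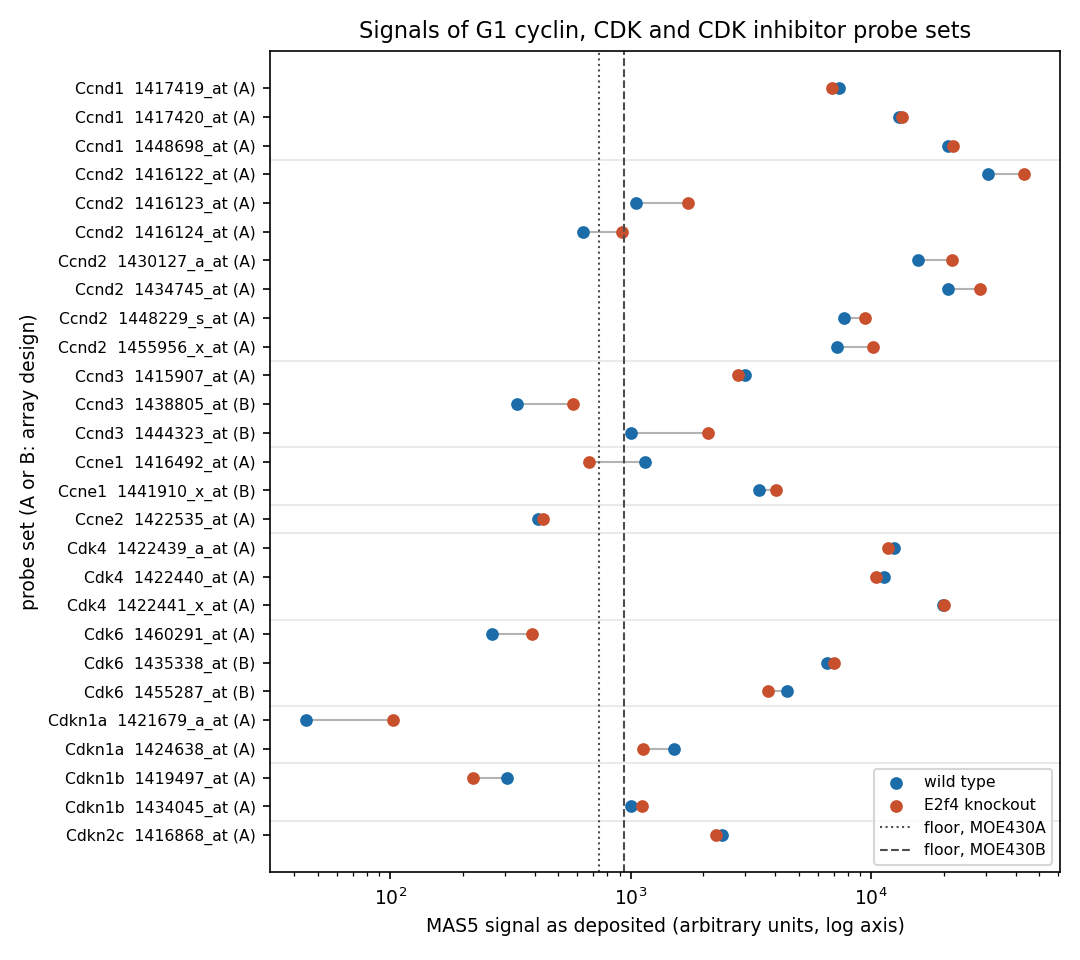
Deposited MAS5 signal (horizontal log axis, arbitrary units) of each of the 27 probe sets in the wild-type sample (blue) and the E2f4 knockout sample (orange), 1 array per point, with the floor of each design as a vertical line. The knockout point lies to the right of the wild-type point on all 7 Ccnd2 probe sets, while the points of Ccnd1 and Cdk4 nearly coincide.

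Ccnd2, the D-type cyclin that is characteristic of cycling progenitors in the embryonic forebrain, was higher in the knockout sample on each of its 6 measured probe sets. The brightest, 1416122_at, read 30467 in wild-type and 43125 in knockout spheres. Probe set 1434745_at read 20899 and 28338, and 1430127_a_at read 15592 and 21603. All 3 were therefore higher in the knockout sample, by 1.35-fold to 1.41-fold. Probe set 1448229_s_at read 7685 and 9445, the smallest of the differences at 1.22-fold. Probe set 1455956_x_at read 7233 and 10154, a 1.39-fold difference. The dimmest measured probe set, 1416123_at, read 1050 in wild-type and 1724 in knockout spheres and gave the highest ratio, 1.63-fold. Probe set 1416124_at passed the floor only in knockout spheres, at 631 against 923, and gives a bound of at least 1.26-fold higher.

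The mean log2 ratio of Ccnd2 over its 6 measured probe sets was 0.48 (SD between probe sets 0.13, n = 6), or 1.39-fold, with a range from 0.29 to 0.71. Of 67 genes with 6 or more measured probe sets, 2 had all of them higher, which is 2.99%, and Ccnd2 was 1 of these; a further 2 had all of them lower. Of the 2 genes with all probe sets higher, Ccnd2 had the higher mean. The number of probe sets and the pattern were set by Ccnd2 itself, after its values were known. Ccnd2 therefore had to be among the genes counted, and its place there is not a test. Several of the 7 probe sets carry names ending in _a_at, _s_at or _x_at, given to probes that can match more than 1 transcript, and the 3 with such endings that were measured lay between 0.29 and 0.48.

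Brightness bears on how far a ratio can be read. On MOE430A the median absolute log2 ratio was 0.22 in the dimmest 25% of measured probe sets and 0.12 in the brightest. Among those brightest ones 3.31% of probe sets were at least 1.3-fold higher in knockout spheres and 4.19% lower by that much. The members had 11 probe sets there, 5 of them of Ccnd2, and 4 were at least 1.3-fold higher. All 4 belong to Ccnd2, and the other members there, Ccnd1 and Cdk4, had none past that size. The 4 repeat the reading of that gene in the same RNA samples, so they are not separate cases to set against those shares.

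Ccnd1, the D-type cyclin of most growth-factor responses, was nearly level. Its probe sets read 20938 in wild-type and 21795 in knockout spheres for 1448698_at, 13031 and 13469 for 1417420_at, and 7328 and 6866 for 1417419_at. Thus 2 probe sets were slightly higher and 1 slightly lower, and the mean log2 ratio was -0.01 (SD between probe sets 0.08, n = 3). The highest ratio of Ccnd1, 0.05, lay below the lowest of Ccnd2, 0.29, on probe sets that share the RNA and the arrays. The log2 ratios of the 2 genes differed by 0.48.

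Ccnd3, the third D-type cyclin, gave no single answer. On MOE430A, 1415907_at, annotated to a RefSeq mRNA, read 3001 in wild-type and 2800 in knockout spheres, a log2 ratio of -0.11. On MOE430B, 1444323_at, annotated to an expressed sequence tag, read 1004 and 2087, a log2 ratio of 1.06. The latter is the 1 measured probe set of any member past 2-fold, where 1.49% of measured MOE430B probe sets were at least 2-fold higher, and it stood just above the floor in the wild type. In the dimmest 25% of that design, which holds it, 21.2% of probe sets were higher by 1.3-fold or more. The remaining Ccnd3 probe set, 1438805_at, also annotated to an expressed sequence tag, was below the floor in both samples at 336 and 577. The gene value of 0.48 is therefore a mean of readings 1.17 apart. Of 2494 genes with 2 measured probe sets, 2.69% had a gap as wide, and the median gap was 0.29. The RefSeq promoter table gives Ccnd3 a pair of starts 88416 bases apart on chromosome 17; which transcripts each probe set reads was not tested.

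**Figure D2:**
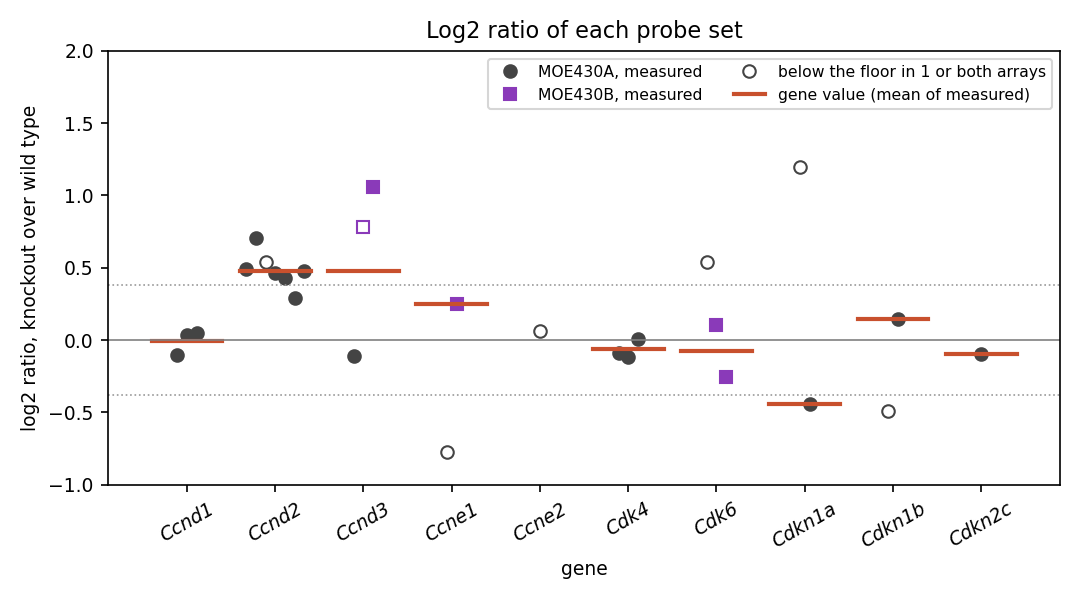
Log2 ratio of knockout over wild type (vertical axis) for each probe set, grouped by gene. Filled symbols were measured, open symbols were below the floor in 1 or both arrays, circles are MOE430A, squares MOE430B, orange bars are gene values and dotted lines mark 1.3-fold. The Ccnd2 symbols all lie between 0.29 and 0.71, whereas those of Ccnd3 run from -0.11 to 1.06.

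The E-type cyclins were less well read. Ccne1, whose cyclin activates CDK2 at the entry to S phase, had probe sets that pointed in opposite directions. On MOE430B, 1441910_x_at read 3404 in wild-type and 4027 in knockout spheres, a log2 ratio of 0.25. On MOE430A, 1416492_at, annotated to a RefSeq mRNA, read 1142 in wild-type and 671 in knockout spheres, below the floor, which gives a bound of at least 1.55-fold lower. The value of Ccne1 thus rests on the x_at probe set and has the opposite sign to the bound. Ccne2, the other E-type cyclin, had 1 probe set, 1422535_at, below the floor in both samples at 411 and 433, and has no value.

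Cdk4, the catalytic partner of the D-type cyclins, was level on bright probe sets. Its 3 probe sets read 19893 and 20162, 12443 and 11789, and 11294 and 10486 in wild type and knockout, with log2 ratios from -0.12 to 0.01 and a mean of -0.06 (SD between probe sets 0.07, n = 3). Cdk6, the related kinase, was measured by 2 probe sets of MOE430B that are annotated to the same expressed sequence tag. Probe set 1435338_at read 6551 in wild-type and 7023 in knockout spheres, and 1455287_at read 4461 and 3727. They lay on either side of 0, at 0.10 and -0.26, with a mean of -0.08. A further Cdk6 probe set, 1460291_at, was below the floor in both samples at 266 and 390.

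Cdkn1a, the gene of p21 and a classical target of p53, had the lowest gene value of the measured members. Probe set 1424638_at read 1515 in wild-type and 1122 in knockout spheres, a log2 ratio of -0.44, or 1.36-fold lower. Of the MOE430A probe sets of like brightness, the second lowest 25%, 11.7% were lower by 1.3-fold or more. Its other probe set, 1421679_a_at, was far below the floor in both samples, at 44.7 and 103, with the higher reading in the knockout sample. Cdkn1b, the gene of p27, read 1005 and 1119 on 1434045_at, a log2 ratio of 0.14. That probe set was in the dimmest 25% of MOE430A, and 1419497_at, also of Cdkn1b, was below the floor at 307 and 221. Cdkn2c, the INK4 inhibitor of the set, read 2397 in wild-type and 2261 in knockout spheres on its 1 probe set, a log2 ratio of -0.09. Of the 3 inhibitors, 1 was higher and 2 were lower, and Cdkn1a alone passed 1.3-fold.

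**Figure D3:**
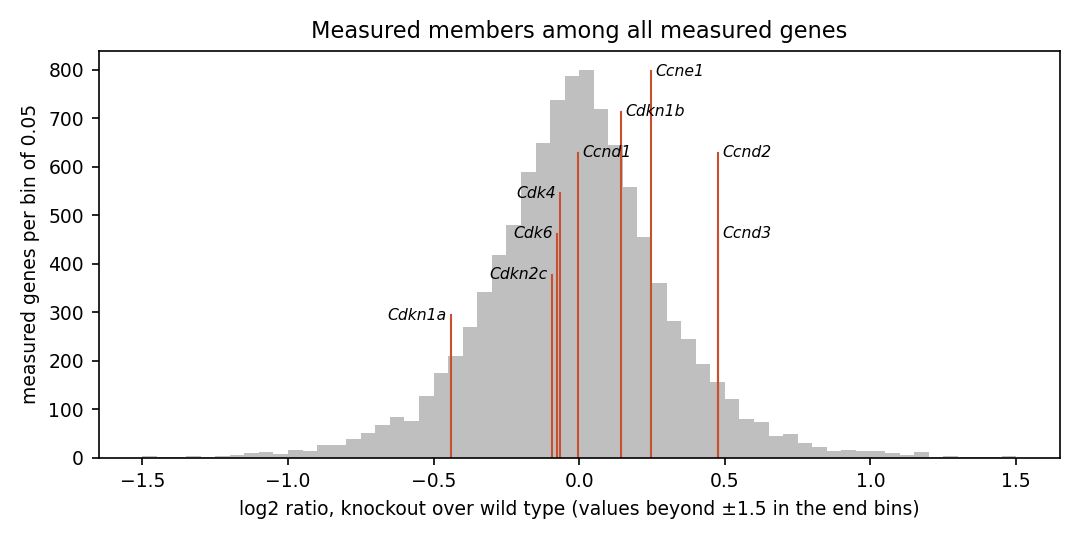
Number of measured genes (vertical axis) by log2 ratio of knockout over wild type in bins of 0.05 (horizontal axis), with the 9 measured members marked by orange lines, Ccnd2 and Ccnd3 sharing a position at 0.48. The members run from Cdkn1a at -0.44 to Ccnd2 at 0.48. Both ends lie past 1.3-fold, where 10.4% of all measured genes were lower by that much and 9.54% higher.

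Other genes of the same step were listed beside the members. A list of 24 other G1 and S-phase regulators, among them Cdk2, the remaining inhibitors, the CDK-activating kinase, ubiquitin ligase genes that act on cyclins and inhibitors, Myc genes and pocket proteins, had 18 measured genes with a median log2 ratio of 0.02, 10 of them higher and 8 lower. None passed 1.3-fold in either direction, where 9.54% of all measured genes were higher by that much and 10.4% lower. The 3 farthest from 0 were Ambra1, which directs the destruction of D-type cyclins, at -0.21 from 1 measured probe set, Cdc25a, the phosphatase that activates CDK2, at -0.21 from probe sets at -0.35 and -0.07, and Cks2, a CDK-binding subunit, at 0.20 from probe sets at 0.12 and 0.28. A further Ambra1 probe set passed the floor only in knockout spheres, at 768 against 1007, with a bound of 0.10 the other way. Not measured were Cdkn2a, Cdkn2b, Ccna1, Fbxo4, Myc and Rbl2. The INK4 inhibitors Cdkn2a and Cdkn2b were thus below the floor in both samples.

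Targets of p53 were listed beside Cdkn1a. Of 18 such genes, 11 were measured, with a median of 0.06, 8 higher and 3 lower. One passed 1.3-fold, Gtse1, a G2-phase gene, which read 1285 in wild-type and 1686 in knockout spheres, a log2 ratio of 0.38. Sesn1 stood at 0.20 from probe sets at -0.02 and 0.42, and Aen at -0.18 from probe sets at -0.34 and -0.02. Another Aen probe set passed the floor only in knockout spheres, at 550 against 1312, and its bound of 0.83 runs the other way. None of the 11 gene values was lower by 1.3-fold, where 10.4% of all measured genes were, and 9.54% were higher by that much. Plk2, a p53-induced kinase, stood at 0.06 from probe sets that disagreed, at -0.52 and 0.64, and the first of these was lower by more than the single Cdkn1a reading of -0.44. Bbc3 passed the floor only in knockout spheres.

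E2F target genes were listed next. Most are genes of DNA replication and nucleotide supply that activator E2Fs switch on at the start of S phase, downstream of the G1 kinases. Of 24 such genes, 23 were measured, with a median of 0.07, 17 higher and 6 lower. Of these, 1 was higher by 1.3-fold or more, Mybl2, and 1 lower by that much, Tk1. Of all measured genes, 48.6% were higher, 9.54% were higher by 1.3-fold or more and 10.4% were lower by that much. The list also includes Mybl2, Cdk1 and Uhrf1. It includes E2f1 and Rbl1, which belong to the E2F and pocket protein families themselves. Rbl1 is also on the list of G1 and S-phase regulators.

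**Figure D4:**
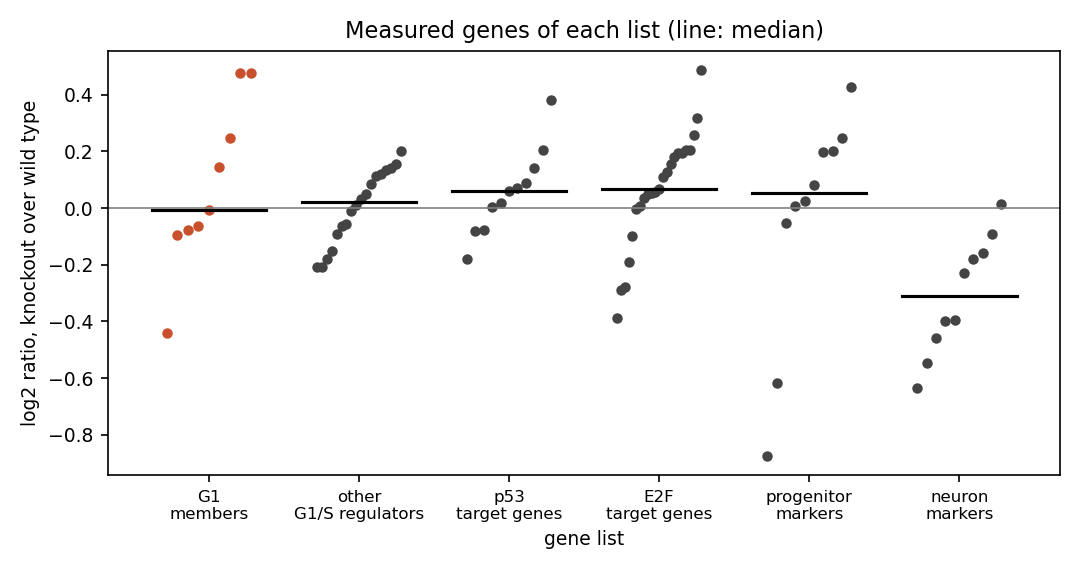
Log2 ratio of knockout over wild type (vertical axis) of each measured gene, 1 point per gene, in the 9 measured members (orange) and 5 other lists, with the median of each list as a line. The regulators of G1 and S phase lie between -0.21 and 0.20, the members spread further, and the neuron markers lie mostly below 0.

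The make-up of the cultures was read from marker lists. Of 10 markers of neural stem and progenitor cells, such as Nes and Sox2, all were measured, with a median log2 ratio of 0.05 and 7 higher, and their signal summed over all their probe sets was 157656 in wild-type and 168008 in knockout spheres. Of 10 markers of neurons, cells that have left the cycle, all were measured, with a median of -0.31 and 9 lower, and their summed signal was 195749 and 165377. For comparison, 48.6% of all measured genes were higher. Neuron markers were thus lower in the sample with more Ccnd2 and less Cdkn1a signal, and their part in those differences was not tested. In RNA from whole cultures, fewer cells of a type cannot be told apart from less RNA per cell.

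Markers of other cell types were mostly below the floor. Measured were 3 of 5 red blood cell, 2 of 5 endothelial and 2 of 5 astrocyte markers. So were 2 of 6 oligodendrocyte lineage, 1 of 6 microglial and 1 of 6 mesenchymal markers. All 3 red blood cell markers were lower, with a median of -0.52. Their summed signals, 279129 in wild-type and 214868 in knockout spheres, were the largest of any marker list. Gfap, Pecam1, Cdh5, Aif1, Ptprc, Col1a1 and Col3a1 were among those not measured. Signals summed over all probe sets of a list were 8925 and 10363 for astrocytes, 8181 and 8140 for the oligodendrocyte lineage and 6475 and 5857 for microglia, wild type first. They were 4615 and 4518 for endothelial and 4317 and 4050 for mesenchymal markers, so astrocyte markers alone of these 5 lists had the larger sum in knockout spheres. Among the measured genes, by contrast, the astrocyte median was -0.14 with 1 gene higher and 1 lower, both endothelial genes were higher with a median of 0.25, and both oligodendrocyte lineage genes were lower with a median of -0.49. The part of these cell types in the members' values was not tested.

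**Figure D5:**
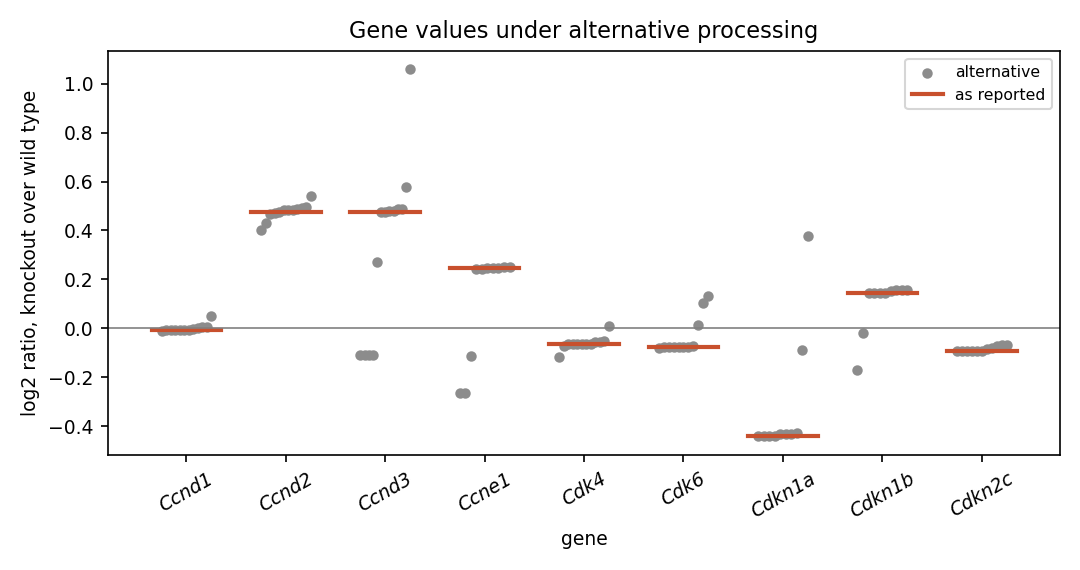
Log2 ratio of knockout over wild type (vertical axis) of each measured member as reported (orange bar) and under each alternative processing that gave a value (grey points). Ccnd2 stays between 0.40 and 0.54, whereas Ccnd3 runs from -0.11 to 1.06 and Cdkn1a from -0.44 to 0.38.

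Gene values moved by different amounts under alternative processing, which reads the same 2 RNA samples again and says nothing of other cultures. Ccnd2 was higher in all 12 alternatives that gave it a value, from 0.40 to 0.54. All 7 of its probe sets were higher, so a choice among them could not change its sign. Cdk4 and Ccnd1 stayed within 0.12 of 0. Ccnd3 was -0.11 wherever 1444323_at did not enter its mean, and 1.06 on MOE430B alone. Cdkn1a was lower in 9 of 10, at only -0.09 with the floor as a pseudocount, and became 0.38 with no floor, where the dim 1421679_a_at entered its mean. Ccne1 became -0.26 with no floor or a floor at the 30th percentile, where 1416492_at entered, and -0.11 with the pseudocount.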

How the data were processed

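Signals were deposited by the authors as linear MAS5 values per probe set, per the submitters' processing notes, which give no version; scaling is not stated, but trimming 2% at each end leaves a mean of 1500 on each array. Per the file headers, both genotypes shared a hybridisation day within a design, and the designs did not share one. The columns held no detection calls.

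For each of 2 RNA samples on 2 designs, control probe sets (64 per design) were left out, signals were taken to log2, and ratios were centred on the design's median, which was 0.01 for MOE430A and -0.004 for MOE430B. A probe set was measured where both arrays reached the design's median signal; where 1 alone did, brighter signal over floor gave a bound. Symbols were those of the platform annotation, checked by gene identifier in a RefSeq table of GRCm38.p6: 20380 probe sets of MOE430A had 1 symbol, 691 several and 1555 none; on MOE430B 14661, 245 and 7605. The table held 18032 of 18193 symbols and changed none.

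All 10 members are named with every probe set, with E2f4 and the 3 genes farthest from 0 in the lists of other G1 and S-phase regulators and of p53 targets. Plk2 was given values outside that rule. Bbc3, Mybl2, Tk1 and other list and marker genes were named without gene values. No genes of like pattern are named, since 2 samples give no pattern to rank. Members, lists and size rules were chosen with earlier results of these data known. The number of arrays limits the precision. The steps were tested on simulated arrays. Software was numpy 2.4.6 and pandas 2.3.3 in Python 3.11.15, with lowess from statsmodels 0.14.6 and figures by matplotlib 3.10.9.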

Additional observations from a re-analysis of the deposited data

How the results depend on the processing

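In all, 13 alternatives were run: floors at the 30th or 70th percentile of signals, no floor, the floor as a pseudocount, no centring, quantile normalization, lowess (span 0.3), only the brightest probe set, leaving out _x_at, _s_at and _a_at probe sets, each design alone and, chosen after seeing the data, centring on measured probe sets and probe sets with an NM accession alone. The members' median ran from -0.06 to 0.25 and E2f4 from -0.25 to -0.17, moves smaller than the SD between probe sets. The other lists' medians moved from -0.06 to 0.08 (G1 and S-phase regulators), -0.02 to 0.37 (p53 targets) and 0.00186 to 0.20 (E2F targets). Members at least 1.3-fold higher numbered 1, not 2, with the floor at the 70th percentile, the pseudocount, the brightest probe set, NM accessions or either design alone. Members at least 1.3-fold lower numbered 0 in place of 1 with the floor at the 70th percentile, no floor, the pseudocount, MOE430B alone or NM accessions. Members higher numbered 2 in place of 4 with the floor at the 70th percentile and on each design alone, and 1 with NM accessions. Measured in these were 7, 7, 3 and 4 members. Members higher numbered 6 with the brightest probe set and 3 without _x_at, _s_at and _a_at probe sets. They numbered 5 with no floor, the pseudocount, no centring or centring on measured probe sets. Ccnd3 was -0.11 with the floor at the 70th percentile, the brightest probe set, MOE430A alone or NM accessions, and Cdkn1a was 0.38 with no floor; in each, different probe sets entered the mean. No paired analysis was possible because each genotype has 1 RNA sample.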
